A study of Drosophila melanogaster with 8 samples.

Results

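The enzymes described here build the isoprenoid precursors of juvenile hormone (JH), act late in its synthesis or break it down: Hmgs, Fpps, qm, jhamt, Jhe, Jheh1, Jheh2 and Jheh3. They were chosen by name, as probe sets whose array annotation gave 1 of these symbols and no other. Of the 8 symbols sought, 5 were found, on 6 probe sets, among 10844 genes named that way. Hmgs had 2 probe sets, and Fpps, qm, jhamt and Jheh2 had 1 each. Jhe, Jheh1 and Jheh3 carried no such probe set and were not analysed here, so JH breakdown rests on Jheh2 alone.

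RNA was taken from cultures of the Drosophila melanogaster line L57 and hybridised to 8 Affymetrix arrays. Solvent control cells received DMSO and were listed as 0 h (2 arrays). Treated cells received 1 µM JH III for 3 h, 6 h or 12 h (2 arrays each). No DMSO array matched the exposures in time, the source label of DMSO replicate 1 mentions embryos, and no label says that replicates were separate cultures, so the p-values reflect only how these arrays spread, which may be technical.

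JH is an insect sesquiterpenoid that keeps larval characters and drives reproduction. Its carbon skeleton comes from the mevalonate pathway, in which acetyl-CoA is built up by way of mevalonate into farnesyl diphosphate. Flies do not make sterols, so in Drosophila this pathway feeds protein prenylation, ubiquinone, dolichol, heme A and, in the corpus allatum gland, JH. In the gland jhamt adds the methyl ester of the hormone. Elsewhere JH esterase removes that ester and JH epoxide hydrolases open the epoxide ring.

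The 7 intact arrays had a common trimmed mean signal of 500.1. JH III 6 h replicate 2 had 3151 unreadable probe sets (22.5% of 14010), treated as missing, among them Fpps and 1 of the Hmgs probe sets. Of 9 hemocyte markers with a probe set 8 passed the filter on dim signal, against 1 of 4 neuronal, 1 of 3 muscle, 3 of 5 fat body and 2 of 4 germline markers, and none was listed at 0. The summed signal of 6 hemocyte markers was 9906.6 to 10083.2 in DMSO, 14725.0 to 14984.8 at 3 h, 13327.4 to 13705.5 at 6 h and 8962.8 to 9635.9 at 12 h. That of 3 fat body markers was 285.1 to 302.9 in DMSO, with 274.2 to 383.1, 351.1 to 378 and 414.9 to 483.9 at the successive exposures. For 2 germline markers it was 3528.3 to 3592.7 in DMSO and 3805.4 to 3968.0, 4247.1 to 4293.7 and 3326.5 to 3585.5 with JH III. Neuronal sums stayed between 156.1 and 300.6 and muscle sums between 90.86 and 356.4. The 3′ to 5′ ratio of eIF-4a, a sign of RNA quality, exceeded DMSO by 0.29, 0.07 and 0.17 (log2) at 3, 6 and 12 h, that of actin by 0.19, 0.19 and 0.20 and that of GAPDH by -0.03, 0.06 and 0.01. In bulk RNA a change in cell make-up and a change in RNA per cell cannot be told apart, and the part of these markers and ratios in the results below was not tested.

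Fpps and the bright Hmgs probe set, at different steps of the mevalonate route, passed the test against DMSO at 6 h and at 12 h. Whether their time courses differ was not tested. Fpps rose 1.63-fold after 6 h of JH III and differed from DMSO by -0.01 on the log2 scale at 12 h. The bright Hmgs probe set fell by 0.36 on the log2 scale at 12 h. Changes are differences in log2(signal + 25) and folds are taken from them, so those of dim probe sets are understated. The Jheh2 probe set was higher at 12 h than at 3 h and 6 h, while its difference from DMSO did not pass the test. No change of qm passed in any comparison, and jhamt stayed in or under the range of background signal.

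**Figure D1:**
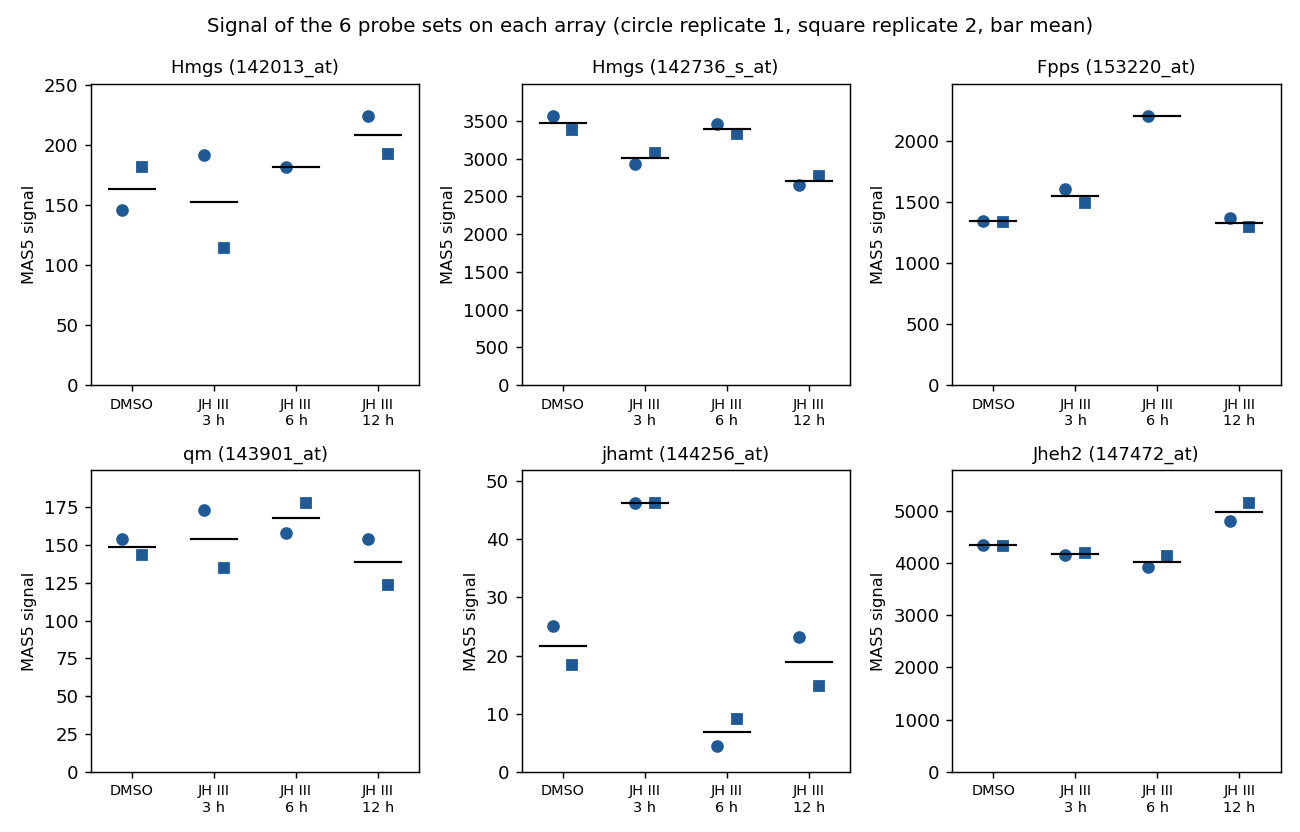
MAS5 signal (vertical axes, linear from 0, each with its own range) of the 6 probe sets in the DMSO arrays and at each JH III exposure. Circles are replicate 1, squares replicate 2 and bars the group mean; Fpps and Hmgs 142013_at have 1 readable array at 6 h, and the Fpps array at 6 h (2208.8) stands above all 6 others.

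Hmgs encodes HMG-CoA synthase, which joins acetyl-CoA to acetoacetyl-CoA. Its bright probe set, 142736_s_at, gave 3566.5 and 3378.6 in DMSO, 2935.4 and 3079.1 at 3 h, 3459.2 and 3329.3 at 6 h, then 2646.2 and 2766.8 at 12 h. Both 12 h arrays lay below the other 6, both 3 h arrays lay below both DMSO arrays, and the 6 h arrays overlapped DMSO. The suffix of its name marks a probe set whose probes may match more than 1 transcript.

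Against DMSO this Hmgs probe set fell by 0.36 ± 0.07 (SE; 95% interval -0.51 to -0.20) at 12 h, with a limma adjusted p of 0.0199. Lower calls made up 2.58% of all probe sets tested in this comparison, and higher calls 3.34%. Leaving out DMSO replicate 1, DMSO replicate 2 or 12 h replicate 1 ended the call for Hmgs (limma adjusted p = 0.151, 0.0985 and 0.0582). At 3 h the value was -0.21 ± 0.07 (limma adjusted p = 0.0648), and at 6 h it was -0.03 ± 0.07 (95% interval -0.19 to 0.12). From 6 h to 12 h the Hmgs signal fell by 0.32 ± 0.07 (limma adjusted p = 0.0137; 0.073 without 6 h replicate 1). In the order DMSO, 6 h, 3 h, 12 h no neighbouring pair passed: adjusted p was 0.8 for DMSO and 6 h, 0.355 for 6 h and 3 h, and 0.166 for 3 h and 12 h by limma.

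The other Hmgs probe set, 142013_at, was dimmer and its replicates spread more. It gave 145.8 and 181.1 in DMSO, 191.3 and 114 at 3 h, 181.2 on the readable 6 h array, then 223.9 and 192 at 12 h. The 3 h replicates differed 1.68-fold. Both 12 h arrays were above every other array, though 192 at 12 h was only just above 191.3 at 3 h. Its 12 h value was 0.31 ± 0.27 (95% interval -0.30 to 0.92, limma adjusted p = 0.551), opposite in sign to the bright probe set. The intervals of the 2 probe sets overlap between -0.30 and -0.20, and their difference was not tested.

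Fpps encodes farnesyl diphosphate synthase, which condenses C5 units into the C15 precursor of JH and of farnesylated proteins. Its signal was 1345.2 and 1339.9 in DMSO, 1610.9 and 1491.5 at 3 h, 2208.8 on the readable 6 h array, then 1370.6 and 1295.0 at 12 h. The 6 h array was the highest, both 3 h arrays lay above both DMSO arrays, and the 12 h arrays fell on either side of DMSO.

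At 6 h Fpps rose by 0.71 ± 0.10 on the log2 scale (95% interval 0.48 to 0.94, limma adjusted p = 0.00389), seen on the 1 readable array. Its error takes the spread from the other groups and assumes that the lone array varies like them. Higher calls made up 7.32% of all probe sets tested at 6 h. At 3 h the value was 0.20 ± 0.08 (95% interval 0.02 to 0.39, limma adjusted p = 0.125), and at 12 h it was -0.01 ± 0.08 (95% interval -0.20 to 0.18). From 6 h to 12 h Fpps fell by 0.72 ± 0.10 (limma adjusted p = 0.00288), where lower calls made up 7.37% of probe sets. In the order 6 h, 3 h, DMSO, 12 h the neighbours did not pass (limma adjusted p = 0.125, 0.125 and 0.959). Between 6 h and 3 h the change of 0.50 ± 0.10 had an unadjusted p of 0.000966 in the limma fit, and 5 of 8380 probe sets passed in that comparison (0.0597%; 0.0239% higher and 0.0358% lower).

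qm, quemao, encodes geranylgeranyl diphosphate synthase, which extends farnesyl diphosphate to the C20 unit used in protein geranylgeranylation. It gave 153.9 and 143.8 in DMSO, 173.2 and 134.9 at 3 h, 157.8 and 178.1 at 6 h, then 153.9 and 123.4 at 12 h. The 3 h and 12 h arrays overlapped DMSO, and both 6 h arrays lay above it by less than the gap between the 3 h replicates. Changes against DMSO were 0.04 ± 0.22, 0.15 ± 0.22 and -0.09 ± 0.22 at 3, 6 and 12 h. The 95% interval at 6 h ran from 0.78-fold to 1.57-fold, and sizes within it could not be told apart with these arrays.

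**Figure D2:**
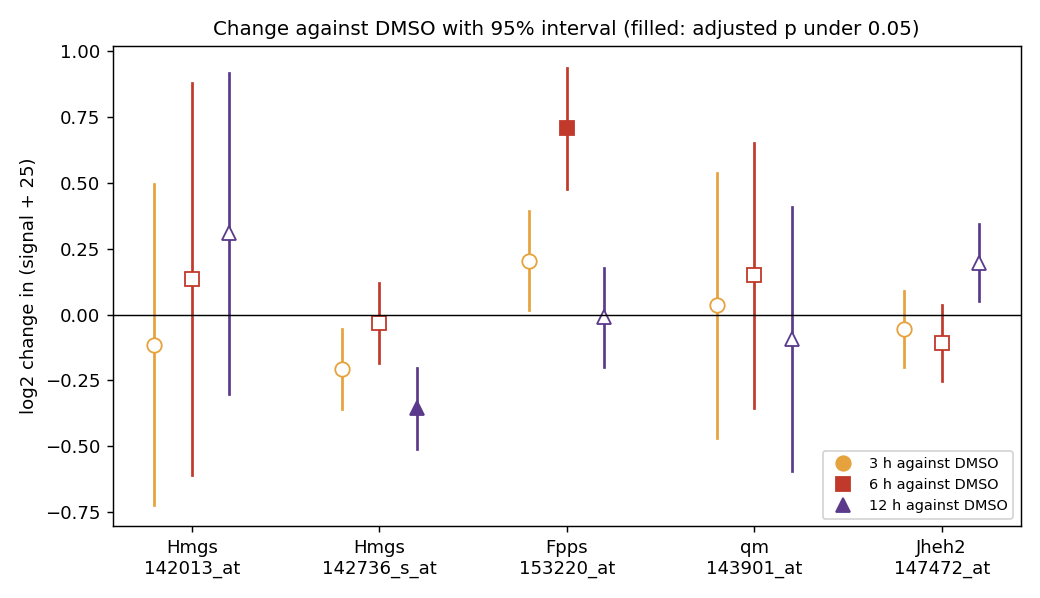
Log2 change in (signal + 25) against DMSO for the 5 tested probe sets at 3 h (circles), 6 h (squares) and 12 h (triangles), with 95% intervals from limma; filled symbols had an adjusted p under 0.05. Fpps at 6 h (0.71) and Hmgs 142736_s_at at 12 h (-0.36) are filled.

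jhamt encodes JH acid methyltransferase, known in Drosophila as an enzyme of the corpus allatum. Its probe set gave 25.1 and 18.4 in DMSO, 46.3 and 46.2 at 3 h, 4.40 and 9.12 at 6 h, then 23.2 and 14.7 at 12 h. All 8 values were under the filter, a signal of 61.5, so jhamt was not part of the test. On the same arrays 23 control probe sets for bacterial, yeast and mouse RNA had medians of 11.7 to 18.7 and reached 47.5 to 100.6, and 4 to 23 of them were above jhamt on each array. The 3 h values lay above and the 6 h values below all others. With no filter limma gave an adjusted p of 0.0391 for any difference among the 4 groups, a call made for 10.7% of the 13966 probe sets. No comparison of 2 groups passed there (limma adjusted p = 0.127 at 3 h and 0.188 at 6 h against DMSO). No size of change is given, since jhamt lay in the range of the controls on every array but 6 h replicate 1. There its 4.40 was under the lowest control, 4.93.

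Jheh2 encodes a microsomal JH epoxide hydrolase, which turns JH into its diol. It gave 4352.4 and 4324.0 in DMSO, 4151.6 and 4195.9 at 3 h, 3927.6 and 4127.1 at 6 h, then 4803.2 and 5157.0 at 12 h. Both 12 h arrays were the highest of the 8, and all 3 h and 6 h arrays lay below both DMSO arrays. Jheh1 and Jheh3 flank Jheh2 with 0 gene starts between neighbours in the RefSeq gene order, and how far their transcripts bind this probe set was not tested.

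From 6 h to 12 h Jheh2 rose by 0.30 ± 0.06 (95% interval 0.16 to 0.45, limma adjusted p = 0.0146), and from 3 h to 12 h by 0.25 ± 0.06 (0.11 to 0.40, limma adjusted p = 0.0286). Over all probe sets 14.3% passed between 6 h and 12 h (6.95% higher) and 16.5% between 3 h and 12 h (7.48% higher and 9.02% lower). Against DMSO the values were -0.06 ± 0.06, -0.11 ± 0.06 and 0.20 ± 0.06 at 3, 6 and 12 h, with limma adjusted p of 0.613, 0.317 and 0.11. The interval at 12 h ran from 1.04-fold to 1.27-fold. In the order 12 h, DMSO, 3 h, 6 h no neighbours passed the test. With quantile normalization the rises from 6 h and 3 h were 0.17 (limma adjusted p = 0.0863) and 0.14 (0.141). The rise from 6 h was lost without 6 h replicate 1 (limma adjusted p = 0.0788) or 12 h replicate 2 (0.0521). The rise from 3 h was lost without DMSO replicate 1 (0.059), DMSO replicate 2 (0.0589), 3 h replicate 1 (0.141), 3 h replicate 2 (0.113) or 12 h replicate 2 (0.0935). Spike-in transcripts added at hybridization read 0.53 higher than in DMSO at 12 h, 0.14 higher at 3 h and 0.04 higher at 6 h (log2), and their part in the Jheh2 and Hmgs values was not tested.

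Over the 3 exposures together, Fpps was higher than DMSO by 0.30 ± 0.07 (limma adjusted p = 0.0261) and the bright Hmgs probe set was lower, at -0.20 ± 0.055 (0.0435). Over all probe sets 14.5% passed, 7.96% higher and 6.52% lower. Both calls were lost without DMSO replicate 1, DMSO replicate 2 or 3 h replicate 1, and the Hmgs call without 3 h replicate 2, either 6 h array or 12 h replicate 1. With median centring the Fpps mean was 0.16 (limma adjusted p = 0.152) and the Hmgs mean -0.35 (0.00653), and with quantile normalization they were 0.35 (0.0179) and -0.16 (0.0903). The Fpps mean could not be computed without 6 h replicate 1. By the test for any difference among the 4 groups, 3 of the 5 probe sets passed: Fpps (limma adjusted p = 0.00529), Hmgs 142736_s_at (0.0138) and Jheh2 (0.0291), against 23.2% of all probe sets. The Hmgs call was lost without DMSO replicate 1 (0.0605). The Jheh2 call was lost with quantile normalization (0.17) and without either DMSO array, either 3 h array, 6 h replicate 1 or 12 h replicate 2 (0.0638 to 0.096).

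Taking the comparisons with DMSO one by one, 0 of 5 probe sets passed at 3 h by limma (1 after median centring), 1 at 6 h and 1 at 12 h. Over all 8380 probe sets 18.8%, 13.5% and 5.92% passed, and at 3 h 10.6% were higher. The median change of the 5 was -0.06, 0.14 and -0.01, and that of all probe sets was 0.03, 0.05 and 0.004. The unadjusted p at 3 h was under 0.05 for Hmgs 142736_s_at (0.0137) and Fpps (0.0371) in the limma fit.

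**Figure D3:**
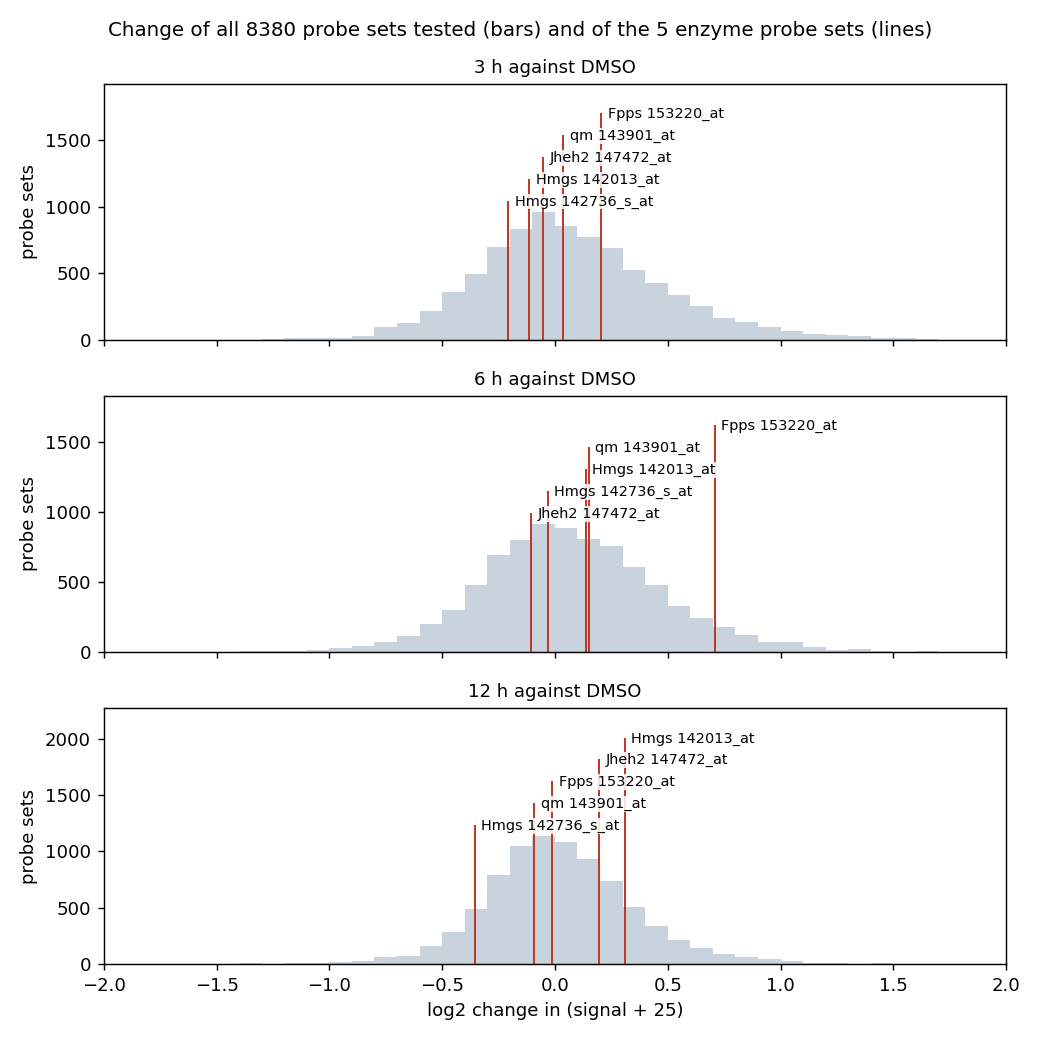
Distribution of the log2 change of all 8380 probe sets tested (bars, 0.1 wide, number of probe sets on the vertical axis) at 3, 6 and 12 h against DMSO, with lines at the 5 enzyme probe sets. Fpps at 6 h (0.71) lies near the 95th percentile of 0.76, and the other lines lie between -0.36 and 0.31.

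Scaling mattered for small changes. Centring each array on its median moved the median change of all probe sets to -0.13, -0.10 and -0.12 at 3, 6 and 12 h. The higher and lower calls, 888 and 684, 613 and 520, and 280 and 216 as deposited, became 507 and 1413, 349 and 1141, and 181 and 708. Fpps at 6 h was then 0.57 (limma adjusted p = 0.00683), and with quantile normalization 0.79 (0.00281). Hmgs 142736_s_at at 12 h was -0.48 (0.0105) and -0.37 (0.0169) under these scalings. With median centring Hmgs 142736_s_at passed also at 3 h (-0.37, limma adjusted p = 0.011) and Jheh2 at 6 h (-0.27, 0.0273).

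The enzymes that precede and follow Hmgs and Fpps in the pathway were listed as well. With Hmgs, Fpps and qm themselves included, the list held 10 genes from acetoacetyl-CoA thiolase to qm. Of these 8 had a probe set of their own, and all 8 passed the filter. At 3 h 2 fell and 0 rose by limma, at 6 h 2 fell and 1 rose, and at 12 h 1 fell and 0 rose. The rise at 6 h was Fpps and the fall at 12 h was Hmgs, the calls already given above. Lower calls made up 8.16%, 6.21% and 2.58% of all probe sets at 3, 6 and 12 h. Higher calls made up 10.6%, 7.32% and 3.34%. Without an array the count of falls was 1 to 2 at 3 h and 0 to 2 at 6 h, and without the variance trend it was 2 at 3 h, 0 at 6 h and 0 at 12 h. The probe set for Mvk, mevalonate kinase, was shared with another gene and was not analysed here.

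The 2 genes that fell at 3 h and at 6 h were thiolases, which make acetoacetyl-CoA, the substrate of Hmgs. Acat1, whose mammalian namesake is mitochondrial, gave 1491.5 and 1413.4 in DMSO, 848.5 and 894.2 at 3 h, 981.3 on the readable 6 h array, then 1370.4 and 1492.6 at 12 h. All 3 h and 6 h values were below DMSO, and the 12 h arrays overlapped it. The Acat1 change was -0.72 ± 0.09 at 3 h (limma adjusted p = 0.0016) and -0.55 ± 0.11 at 6 h (0.0147; 0.0834 and 0.0663 without DMSO replicates 1 and 2). Acat2, whose mammalian namesake is cytosolic, gave 2204.9 and 2191.2 in DMSO, 1635.8 and 1693.8 at 3 h, 1578.1 and 1733.0 at 6 h, then 2409.0 and 2398.3 at 12 h. Its change was -0.40 ± 0.07 at 3 h (limma adjusted p = 0.00693) and -0.41 ± 0.07 at 6 h (0.00862), and its 12 h value was 0.13 ± 0.07 (0.356). Without DMSO replicate 1 or 2 the Acat2 calls were lost at 3 h (0.0522 and 0.0549) and at 6 h (0.0612 and 0.0662), as they were at 3 h without 3 h replicate 1 (0.0545) and at 6 h without 6 h replicate 1 (0.0514).

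The steps between Hmgs and Fpps did not pass in any comparison with DMSO. Pmvk, phosphomevalonate kinase, gave changes of 0.02, -0.15 and 0.01, each ± 0.23, at 3, 6 and 12 h. Mvd, mevalonate diphosphate decarboxylase, gave -0.19, -0.40 and -0.13, with errors of 0.24 to 0.29. Idi, the isomerase that supplies the starter unit of Fpps, gave -0.14, -0.15 and -0.36, with errors of 0.19 to 0.23. Beside jhamt, CG10527, named as a farnesoic acid methyltransferase, had 0.39 ± 0.24 at 3 h and -0.44 ± 0.30 at 6 h on 1 array, and Cyp6g2, a cytochrome P450, had 0.94 ± 0.56 at 3 h. Neither passed, and the DMSO arrays of Cyp6g2 read 235.7 and 36.6. Jhedup, the neighbour and relative of Jhe, stayed at signals of 11.2 to 46.1, under the filter on every array.

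**Figure D4:**
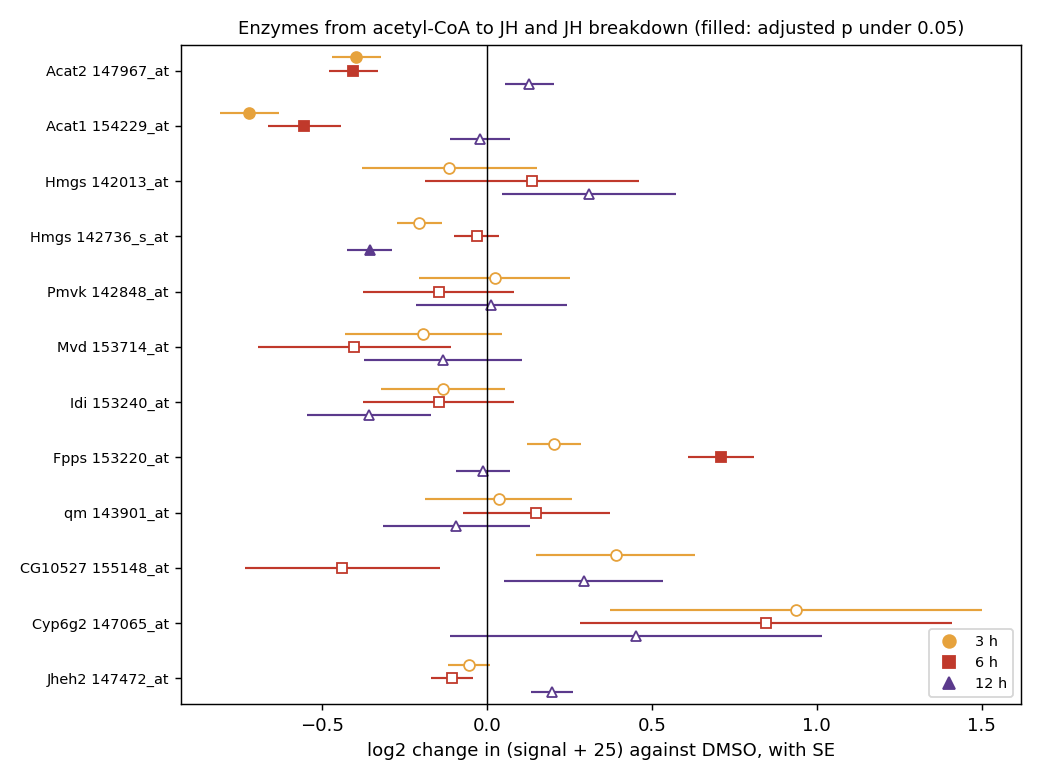
Log2 change in (signal + 25) against DMSO, with standard errors, for the enzymes from acetyl-CoA to JH and its breakdown in pathway order, at 3 h (circles), 6 h (squares) and 12 h (triangles); filled symbols had an adjusted p under 0.05. Acat1 and Acat2 lie below 0 at 3 and 6 h, and Fpps lies above 0 at 6 h (0.71).

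Enzymes that use farnesyl and geranylgeranyl diphosphate, or pathways built on them, formed a list of 24 genes, 23 of them tested. At 3 h 7 fell and 0 rose by limma, at 6 h 6 fell and 0 rose, and at 12 h 0 fell and 1 rose. Over all probe sets 8.16%, 6.21% and 2.58% fell and 10.6%, 7.32% and 3.34% rose. Several of the marker sums and 3′ to 5′ ratios given above also differed from DMSO at 3 and 6 h. Their part in these counts was not tested. The median change over the 25 probe sets of the list was -0.19, -0.21 and -0.03, against 0.03, 0.05 and 0.004 over all probe sets. Without the variance trend 4 fell at 3 h and 1 at 6 h. The 3 h count was 2 without DMSO replicate 2. Leaving out DMSO replicate 1 gave a 6 h count of 3, leaving out DMSO replicate 2 gave 1, and leaving out 6 h replicate 1 gave 0, when the members unreadable on the other 6 h array were not tested.

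On the list of users, betaggt-I, RabGGTa and Rep passed at no time against DMSO. Their 3 h changes were -0.24 ± 0.14, -0.05 ± 0.09 and -0.02 ± 0.10. Both subunits of protein farnesyltransferase, the enzyme that moves the farnesyl group from the product of Fpps onto proteins, were among the 7 at 3 h. Fnta, the alpha subunit, gave 3278.5 and 3278.3 in DMSO and 2233.3 and 2103.3 at 3 h, a change of -0.59 ± 0.08 (limma adjusted p = 0.00176). Fntb, the beta subunit, had -0.56 ± 0.12 at 3 h (limma adjusted p = 0.0142; 0.11 without DMSO replicate 2 and 0.0597 and 0.0811 without 3 h replicates 1 and 2). At 6 h Fnta, on 1 readable array, had -0.54 ± 0.09 (limma adjusted p = 0.00837; 0.0584 without DMSO replicate 2), and Fntb had -0.40 ± 0.14 (0.112).

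Among listed enzymes of ubiquinone synthesis, Coq6, Coq8 and Coq9 passed at 3 or 6 h. Pdss2, qless, Coq2, Coq3 and Coq7 passed at no time against DMSO. At 6 h Coq7 had 0.31 ± 0.17, Coq2 0.13 ± 0.17 and Pdss2 0.01 ± 0.14. Below 0 at 6 h were Coq3 (-0.09 ± 0.41, 1 readable array) and both qless probe sets (-0.87 ± 0.72 and -0.56 ± 0.54). Coq6 (a hydroxylase) had -0.51 ± 0.09 at 3 h and -0.48 ± 0.09 at 6 h (limma adjusted p = 0.00488 and 0.00849). Both Coq6 calls were lost without DMSO replicate 2 (0.0528 and 0.0794), and the 6 h call without 6 h replicate 1 (0.0512). Coq8, an atypical kinase, had -0.64 ± 0.13 at 3 h (0.00916; 0.0805 without DMSO replicate 2 and 0.0637 without 3 h replicate 2). Coq9, a lipid-binding partner of Coq7, had -0.51 ± 0.12 at 6 h on 1 readable array (0.032; up to 0.128 when a DMSO array or 3 h replicate 1 was left out).

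Of dolichol synthesis, Dhdds, the cis-prenyltransferase, had -0.59 ± 0.09 at 3 h (limma adjusted p = 0.00233) and -0.35 ± 0.09 at 6 h (0.0293; 0.13, 0.142 and 0.142 without DMSO replicate 1, DMSO replicate 2 and 6 h replicate 1, and 0.0604 with quantile normalization). Tango14, whose mammalian relative is the partner subunit of that enzyme, had -0.51 ± 0.11 at 3 h (0.0136) and -0.50 ± 0.11 at 6 h (0.0197). Dolk, also listed, did not pass, with -0.09, 0.09 and 0.18, each ± 0.13, at 3, 6 and 12 h. The Tango14 calls rose to between 0.0648 and 0.12 without either DMSO array, 3 h replicate 2 (at 3 h) or either 6 h array (at 6 h).

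Cox10, which adds a farnesyl chain to heme for cytochrome oxidase, fell early and rose late. It gave 3262.3 and 3318.9 in DMSO, 2494.1 and 2707.8 at 3 h, 2113.1 on the readable 6 h array, then 4255.7 and 4265.7 at 12 h. Its changes were -0.34 ± 0.07, -0.63 ± 0.09 and 0.37 ± 0.07 (limma adjusted p = 0.0134, 0.00338 and 0.0242). The 3 h call was lost without either DMSO array or 3 h replicate 1 (adjusted p up to 0.101), and the 12 h call without any 1 of the DMSO or 12 h arrays (up to 0.151) and with median centring (0.24, 0.0873).

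**Figure D5:**
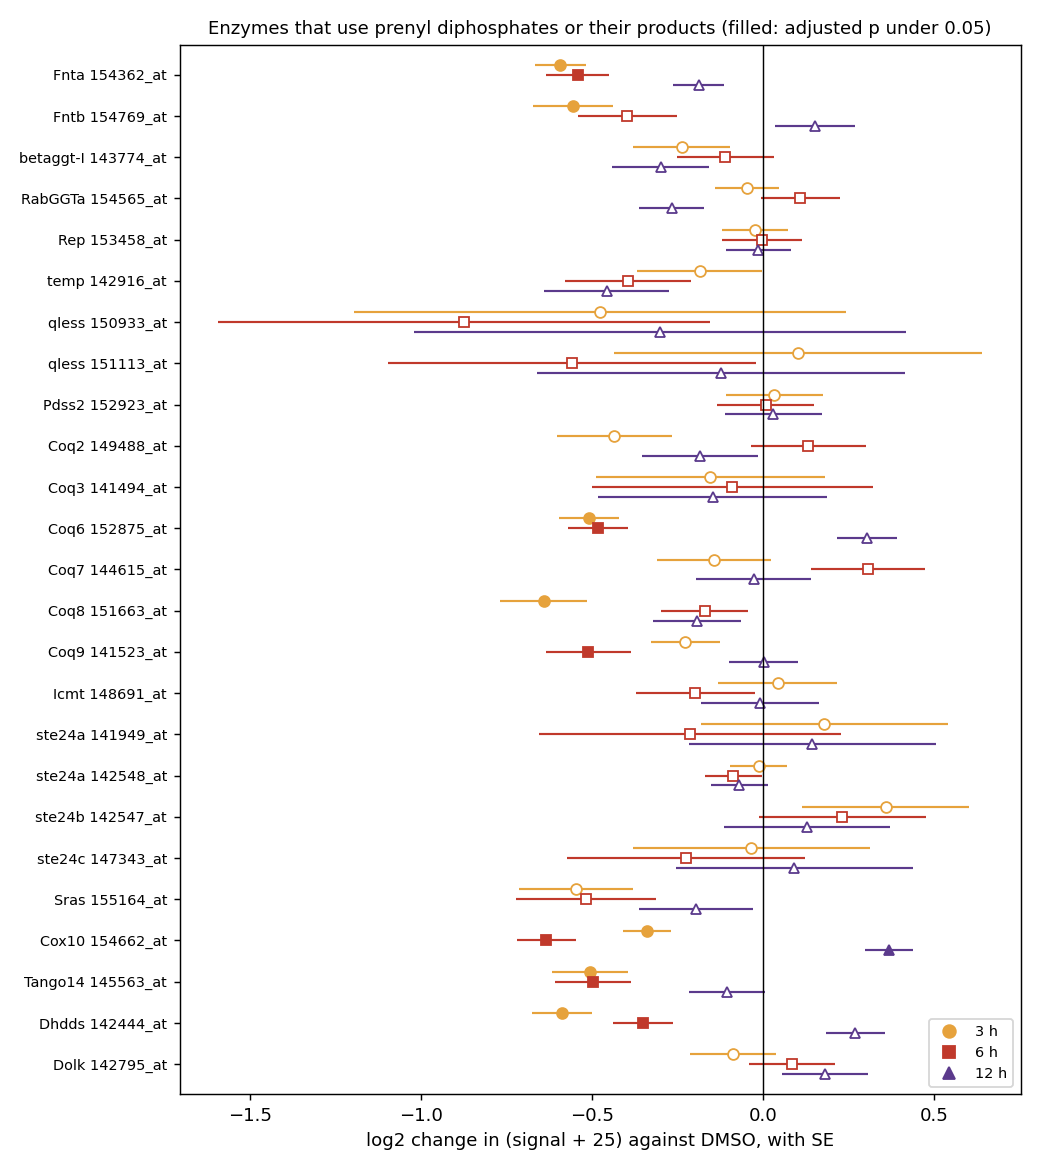
Log2 change in (signal + 25) against DMSO, with standard errors, for 25 probe sets of enzymes that use prenyl diphosphates or their products, at 3 h (circles), 6 h (squares) and 12 h (triangles); filled symbols had an adjusted p under 0.05. All filled symbols at 3 and 6 h lie below 0, and the filled symbol at 12 h is Cox10 (0.37).

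Probe sets whose signal ran most like that of a called enzyme over the 8 arrays were named by Pearson's r, as a description over arrays that share their scaling. Among 5123 candidates the bright Hmgs probe set ran closest to Yip1d1 (r = 0.955), eIF3l (0.953) and Stt3A (0.953). Their changes at 12 h against DMSO were -0.29, -0.58 and -0.24. Jheh2 ran closest to Nurf-38 (r = 0.980), COX7B (0.978) and mRpL11 (0.978), whose changes at 12 h were 0.21, 0.37 and 0.59. Fpps was unreadable on 1 array and was not ranked.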

How the data were processed

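The authors deposited 1 intensity, a linear MAS5 signal, for each probe set, per the submitters' processing notes (version not given in the sources used here). Trimmed means agree between intact arrays. From these values log2(signal + 25) was computed; 44 controls and probe sets under the 40th percentile of mean log2 value were left out, which kept 8380 of 13966. Zeros and 5 impossible values in 2 stretches of JH III 6 h replicate 2 were set missing. One limma 3.58.1 fit (R 4.3.3) of 4 group means over 8 arrays, with a variance trend, gave two-sided tests adjusted by Benjamini-Hochberg over all 8380 probe sets, threshold 0.05. Errors are standard errors of this fit. The fit was tested on simulated data. The number of arrays limits the precision. Symbols came from the platform annotation, listed genes were matched through RefSeq gene IDs, and probes were not realigned. Every member was named, as were the other listed genes that passed at any time against DMSO, and for likeness the 3 genes with the highest r. Members, lists and settings were chosen with earlier results of these data known. Arrays with the same replicate number did not deviate together (r of -0.047 to 0.066 between groups), so no pairing was used. Groups of 2 allow no outlier test.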

Additional observations from a re-analysis of the deposited data

Results flagged for a closer look

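Differences between exposure times that passed the test by limma were flagged, each of them already described. From 6 h to 12 h Fpps differed by -0.72, Hmgs 142736_s_at by -0.32 and Jheh2 by 0.30 on the log2 scale. From 3 h to 12 h Jheh2 differed by 0.25. The Fpps value has 1 readable array at 6 h.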

How the results depend on the processing

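Counts are of the 5 tested probe sets of the named enzymes that passed by limma. At 3 h against DMSO the count of 0 became 1 with the filter at the 60th percentile and 1 with median centring (Hmgs). At 6 h the count of 1 became 2 with median centring and 0 when only probe sets measured by every array were kept, where Fpps drops out. At 12 h the count of 1 became 0 without the variance trend and 0 from the arrays of the groups compared alone. For the mean of the exposures the count of 2 became 1 with no filter, 1 with quantile normalization, 1 with median centring, 0 without the variance trend, 1 with a replicate block and 0 when only probe sets measured by every array were kept. For 12 h against 3 h the count of 1 became 0 with quantile normalization, without the variance trend and from the arrays compared alone. For 12 h against 6 h the count of 3 became 1 without the variance trend and 1 from the arrays compared alone. For any difference the count of 3 became 0 without the variance trend and 4 with no filter (jhamt). These last 2 counts of 3 each became 2 with quantile normalization, which ended the Jheh2 calls, and 2 when only probe sets measured by every array were kept. Leaving out 1 array gave counts of 0 to 0 at 3 h, 0 to 1 at 6 h and 0 to 1 at 12 h, 0 to 2 for the mean, 0 to 1 for 12 h against 3 h, 0 to 3 for 12 h against 6 h, and 1 to 3 for any difference. With the zeros kept as values no enzyme probe set passed in any comparison (0 in each), and Fpps took the opposite sign: -2.53 at 6 h and -0.78 for the mean against DMSO, and 2.52 for 12 h against 6 h, since the zero enters as a signal. Replicate numbers did not pair the arrays. The replicate block moved no other count of enzyme probe sets, while Coq9 at 6 h did not pass with it (0.0606); over all probe sets its calls at 3, 6 and 12 h were 1384, 872 and 345 against 1572, 1133 and 496. Over all probe sets, the calls at 12 h ranged from 37 without the variance trend to 889 with median centring, apart from the zeros kept as values (0 calls). The causes of these shifts were not tested where none is given. Fpps at 6 h passed in every alternative that gave it a value, apart from the zeros kept as values. Each pass used the same 1 readable 6 h array, so these passes cannot show whether the rise would repeat. Fpps had no 6 h value without 6 h replicate 1. An added constant of 5 or 100 moved no count of enzyme probe sets. The comparison of all 4 groups and the mean were not run on 2 groups alone. Keeping those probe sets alone gave 1 and 1 falls among the mevalonate steps and 4 and 3 among the prenyl diphosphate users at 3 and 6 h; with zeros kept as values all were 0, and median centring gave 2 falls among the users at 12 h. The settings for the list genes were added after the data were seen, and 69 of 329 repeats of their calls did not pass.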
